A study of Mus musculus with 2 samples.

Results

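The 8 genes examined here encode transcription factors that have been tied to the maturation of enterocytes, the absorptive cells of the intestinal epithelium. They were taken by symbol from the table of read counts, as a list of Klf4, Klf5, Maf, Prdm1, Elf3, Creb3l3, Tcf4 and Bcl6, and all 8 were among its 19294 genes. The study cultured jejunal crypts of Lgr5-EGFP-IRES-creERT2 mice, whose Lgr5 stem cell locus drives EGFP and an inducible Cre, as mouse intestinal organoids (mIOs) in Matrigel with EGF, Noggin and R-spondin. One culture was the control, and the other was treated with dextran sulfate sodium (DSS), a polysaccharide sulfate that damages epithelial cells. The 2 cultures carried the same genotype and were labelled day 4. The age and number of the mice and the DSS concentration used for sequencing were not given in the sources used here.

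With 1 library per condition, no difference below has a replicate check and no p-value is given. Each value is the log2 fold difference of scaled counts in DSS-treated against control mIOs. The plots call it a log2 ratio. Its 95% interval (exact, Clopper-Pearson) covers counting error only and not the variation between cultures. As counts came from whole organoids, a change in the number of cells of a type and a change in RNA per cell cannot be told apart.

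Intestinal cells are born in crypts and mature as they move along the villus, and BMP signals rise along that path while WNT signals fall. KLF4 is a zinc finger factor of differentiated epithelium and goblet cells, and KLF5 is its relative in the dividing crypt. MAF and BCL6 are expressed in villus enterocytes, PRDM1 (Blimp-1) is a repressor that holds the epithelium in its suckling state before weaning, and ELF3 is an ETS factor of the differentiating epithelium. CREB3L3 (CREB-H) sits in the membrane of the endoplasmic reticulum, is released by the proteases S1P and S2P, and activates genes of lipid transport. The row named Tcf4 has the NCBI identifier 21413, which RefSeq lists as the E protein E2-2. It is not Tcf7l2, the WNT effector often called TCF4, so the place of Tcf4 among factors of enterocyte maturation is uncertain.

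In total, 65493032 counts were available for control and 59746968 for DSS-treated mIOs. Library scaling used TMM factors, and levels are given in CPM, counts relative to the scaled library size. The comparison with all genes rests on the 17235 genes that reached 10 counts in one library or both, whose median log2 fold difference was -0.06. Past a line of 1 lay 19.3% of these genes, and 20.2% lay past a line of -1. Without TMM factors, on total counts, these shares were 15.4% and 26.2%, and every gene, like the median of all genes, shifted by -0.26. All 10 enterocyte markers had a difference of 1 or more, or 8 of 10 on total counts, and all 6 stem cell markers a difference of -1 or less. The labels give the cell type as intestinal stem cells, but enterocyte, goblet, enteroendocrine and Paneth cell markers were present in both libraries.

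Of the 8 factors, 2 had a log2 fold difference of 1 or more and none had one of -1 or less, against 20.2% of all genes. With a background of 19.3% at 1 or more, a count of 2 of 8, or 25%, is near what all genes show. The 2 factors were Creb3l3 and Klf4. The differences of the other 6 all lay between -0.79 and 0.73, the 25th and 75th percentiles of all genes tested. The median of the 8 factors was 0.24, and 6 were above 0 and 2 below, or 4 and 4 on total counts. All 8 had at least 211 counts in both libraries.

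**Figure D1:**
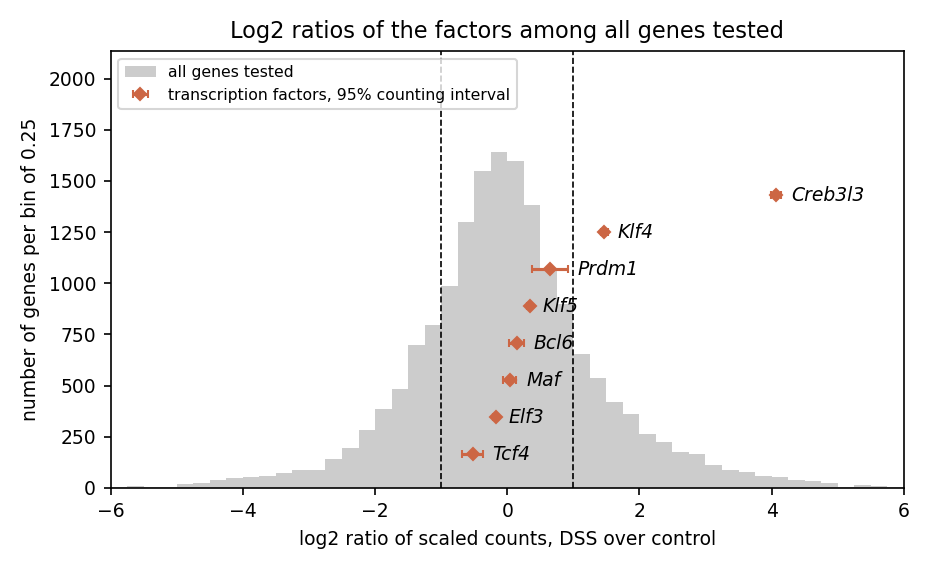
Log2 fold difference of scaled counts, DSS over control, for all 17235 genes tested (grey bars, number of genes per bin, shown from -6 to 6) and for the 8 factors (diamonds with 95% counting intervals, placed at arbitrary heights). Dashed lines mark -1 and 1. Creb3l3 at 4.06 and Klf4 at 1.47 lie beyond the line and the other 6 lie in the bulk of the genes.

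Creb3l3 (NCBI gene 208677) had the largest difference of the 8. It had 1471 counts in control mIOs and 18787 in DSS-treated mIOs, or 20.6 CPM and 344 CPM. The log2 fold difference was 4.06, with a counting interval of 3.99 to 4.14, a fold of 16.7. Of all genes tested, 181 had a difference as high or higher. Its share of the counts of all 8 factors together was 4.00% in control and 35.5% in DSS-treated mIOs.

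Klf4 (16600) had 4653 and 9829 counts in control and DSS-treated mIOs, or 65.0 CPM and 180 CPM. It was 2.77-fold higher in the DSS library, with a log2 fold difference of 1.47 and an interval from 1.42 to 1.52. The difference was smaller than that of Creb3l3, and 2201 genes had a difference as high or higher.

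The sequence before the start of both genes is shown, as these are the factors that stood past the line. RefSeq (GRCm38.p6) gives 2 starts for Creb3l3 and 1 for Klf4, all on the minus strand. Windows of 5 of the 8 factors were scanned, and those of the others were not used. Each sequence is the 250 bases before the start, written 5′ to 3′ along the gene. Capitals mark CACCC or its reverse complement (the core letters bound by KLF factors), TGACG (CREB-type factors) and TGCTGA (MAF factors), searched on both strands.
Creb3l3, chr10:81098873-81099122: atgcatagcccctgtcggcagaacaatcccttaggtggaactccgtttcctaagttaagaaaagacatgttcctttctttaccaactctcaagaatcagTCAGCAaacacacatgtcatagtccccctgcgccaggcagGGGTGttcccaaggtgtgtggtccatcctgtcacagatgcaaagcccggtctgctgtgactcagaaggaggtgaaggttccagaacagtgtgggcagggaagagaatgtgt
Creb3l3, chr10:81092592-81092841: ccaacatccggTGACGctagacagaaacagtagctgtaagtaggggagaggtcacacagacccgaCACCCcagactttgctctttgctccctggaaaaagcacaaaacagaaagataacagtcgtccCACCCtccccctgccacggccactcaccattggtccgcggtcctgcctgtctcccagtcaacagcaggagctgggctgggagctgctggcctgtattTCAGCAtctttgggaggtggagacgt
Klf4, chr4:55532476-55532725: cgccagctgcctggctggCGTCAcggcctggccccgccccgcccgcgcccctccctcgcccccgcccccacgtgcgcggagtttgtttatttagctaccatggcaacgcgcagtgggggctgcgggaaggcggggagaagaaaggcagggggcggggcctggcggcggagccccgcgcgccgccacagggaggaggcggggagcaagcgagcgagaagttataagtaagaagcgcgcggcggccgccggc

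Both Creb3l3 windows held CACCC and TGCTGA, and the second of them also held TGACG. Of the motifs marked by capitals, the Klf4 window held TGACG alone, and no KLF letters other than CACCC and its reverse complement were searched. No base belonged to 2 of these motifs. Across 32851 windows of the same length, CACCC was found in 52%, TGACG in 17.8% and TGCTGA in 16.1%. Further searches for PRDM1 letters (GAAAGT, in 12.3% of all windows), ELF3 letters (GGAAGT, in 19.7%) and BCL6 letters (TTCCTAGA, in 1.14%) had no match in these 3 windows. For contrast, Elf3, whose level differed little between the libraries, had 2 CACCC matches and no TGACG match. TGACG also lay before Prdm1, at a log2 fold difference of 0.64, and before a start of Bcl6, at 0.14, with 2 matches there. The other Bcl6 window had no TGACG match but held 1 CACCC match and 1 GAAAGT match. The Prdm1 window also held 1 GGAAGT match. A match describes the letters only, and binding was not measured.
Elf3, chr1:135258473-135258722: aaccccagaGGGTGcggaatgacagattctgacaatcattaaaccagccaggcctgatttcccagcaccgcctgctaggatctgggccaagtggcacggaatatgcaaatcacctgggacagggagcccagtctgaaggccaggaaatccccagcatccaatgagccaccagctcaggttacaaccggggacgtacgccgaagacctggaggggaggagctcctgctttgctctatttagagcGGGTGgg

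**Figure D2:**
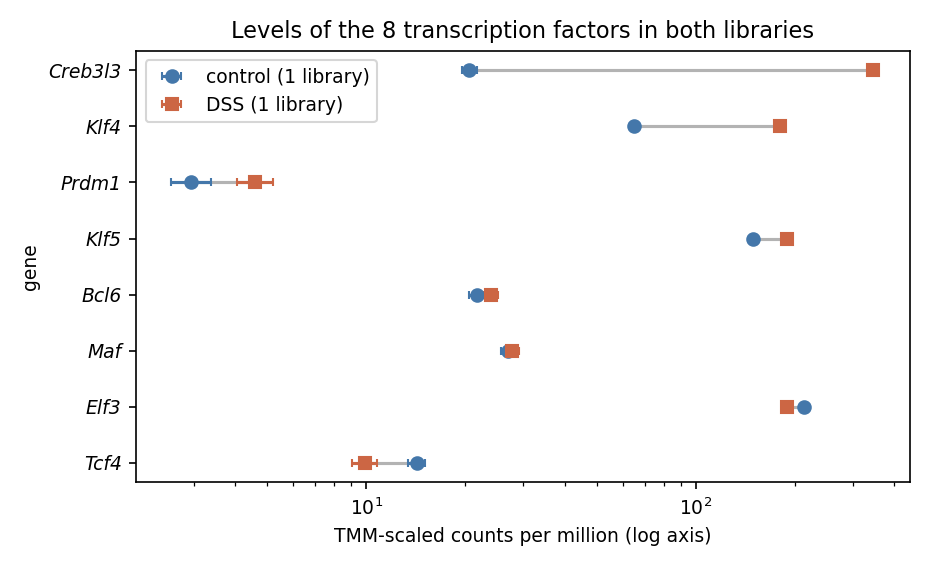
Level of each factor in the control library (circles) and the DSS library (squares) in TMM-scaled CPM on a log axis, 1 library each, with 95% counting intervals. Creb3l3 moves from 20.6 to 344 CPM and Klf4 from 65.0 to 180 CPM, and Elf3 and Tcf4 are lower in the DSS library.

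Klf5 (12224), the crypt relative of Klf4, had 10692 counts in control mIOs and 10341 in DSS-treated mIOs, or 149 CPM and 189 CPM. Its log2 fold difference of 0.34, with a counting interval of 0.30 to 0.38, was above the median of all genes but inside the middle range. The balance of the pair can be read within a library, where scaling has no part. There were 0.435 Klf4 counts per Klf5 count in control and 0.95 in DSS-treated mIOs. This ratio was 2.18-fold higher in the DSS library, with an exact conditional interval of the odds ratio from 2.09 to 2.28.

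Elf3 (13710) had 15281 counts in control mIOs and 10350 in DSS-treated mIOs, or 214 CPM and 189 CPM. Its log2 fold difference was -0.17, with a counting interval of -0.21 to -0.14. Ehf, another epithelium-specific ETS factor, differed more, with 7790 and 1064 counts and a log2 fold difference of -2.48. Elf3 therefore had 1.96 counts per Ehf count in control and 9.73 in DSS-treated mIOs, a 4.96-fold difference with a counting interval of 4.63 to 5.32.

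Maf (17132) had 1921 counts in control mIOs and 1510 in DSS-treated mIOs. At 26.8 CPM and 27.6 CPM its log2 fold difference was 0.04, and it was the only factor of the 8 whose counting interval, from -0.06 to 0.14, held 0.

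The repressors Prdm1 and Bcl6 are known in lymphocytes for repressing one another's genes. Prdm1 (12142) was the scarcest of the 8, with 211 and 252 counts, or 2.95 CPM and 4.61 CPM, and a log2 fold difference of 0.64 with a counting interval of 0.38 to 0.92. Bcl6 (12053) had 1547 and 1303 counts, or 21.6 CPM and 23.8 CPM, and a log2 fold difference of 0.14 with a counting interval of 0.03 to 0.25. Bcl6 counts per Prdm1 count were 7.33 in control and 5.17 in DSS-treated mIOs, 1.42-fold lower, with a counting interval of 1.16-fold to 1.74-fold.

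Tcf4 (21413) had the lowest difference of the 8, with 1018 counts in control mIOs and 541 in DSS-treated mIOs, or 14.2 CPM and 9.90 CPM. The log2 fold difference was -0.52, with a counting interval of -0.68 to -0.37. Tcf7l2, the WNT effector with the confusable name, went the other way, with 3450 and 6411 counts and a log2 fold difference of 1.28. There were 0.295 Tcf4 counts per Tcf7l2 count in control and 0.0844 in DSS-treated mIOs, 3.50-fold lower, with a counting interval of 3.12-fold to 3.92-fold.

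**Figure D3:**
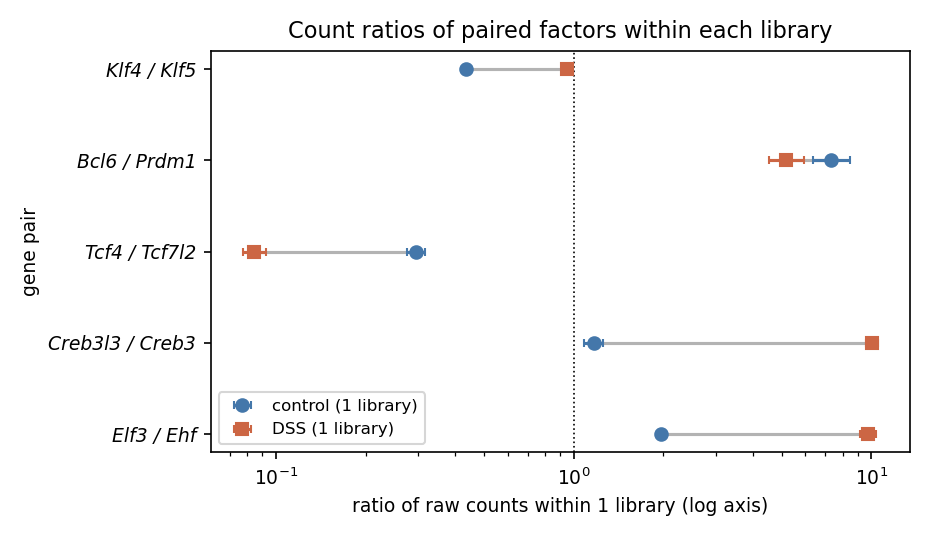
Raw counts of the first gene divided by those of the second within 1 library, on a log axis, for the control (circles) and DSS (squares) libraries, with exact 95% counting intervals. The dotted line marks equal counts. The Klf4 to Klf5 ratio is 0.435 in control and 0.95 in DSS-treated mIOs, and the Elf3 to Ehf ratio is 1.96 and 9.73.

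Levels of different genes are compared per kilobase, as scaled CPM divided by the median length of the gene's protein-coding transcripts in GENCODE vM21. In the control library the order was Elf3 at 107 CPM per kb, Klf4 at 75.7, Klf5 at 48.2, Creb3l3 at 8.96, Tcf4 at 7.72, Bcl6 at 6.13, Maf at 5.60 and Prdm1 at 0.732. In the DSS library Klf4 stood first at 209 CPM per kb, followed by Creb3l3 at 150, Elf3 at 94.7, Klf5 at 61.0, Bcl6 at 6.76, Maf at 5.76, Tcf4 at 5.37 and Prdm1 at 1.15. Counting intervals overlapped for Bcl6 and Maf in the control and for Maf and Tcf4 in the DSS library, and there are no replicates to give a wider spread. Creb3l3 moved from the percentile 47.3 of all genes in level per kb to the percentile 94.7. The places of Klf4 and Tcf4 depend on the length used. The median annotated transcript of Tcf4 has 1841.5 bases and its longest 8577, with which Tcf4 was at 1.66 CPM per kb in control and 1.15 in DSS-treated mIOs, seventh of the 8 in both libraries. The median transcript of Klf4 has 859 bases and its longest 3029. With the longest transcript Klf4 was at 21.5 CPM per kb in control and 59.4 in DSS-treated mIOs, and Creb3l3, at 150, stood first of the 8 in the DSS library.

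Relatives of these factors were read family by family, and close to the line their counts depend on scaling. Of 13 other KLF genes tested, 4 were past the line of 1 and 1 past that of -1, or 3 and 2 on total counts. Their median was 0.42, or 0.16 on total counts. Klf2 was at 2.93, with 93 and 540 counts, Klf6 at 1.72 and Klf3 at 1.31. Of the 4 other MAF genes tested, 2 were at 1 or more, or 1 on total counts. They were the small MAF genes Mafk at 1.62 and Maff at 1.15, and Mafg was at -0.03. All 4 other CREB3 genes were above 0, with a median of 0.99, or 0.74 on total counts. Of them, 2 were at 1 or more, or 1 on total counts. Among them Creb3l2 was at 2.19, Creb3l4 at 1.02 and Creb3 at 0.96. Creb3l3 counts per Creb3 count were 1.17 in control and 10.03 in DSS-treated mIOs, 8.60-fold higher, with a counting interval of 7.86 to 9.41.

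Other families had members on both sides. The 7 ETS genes other than Elf3 had a median of 0.03, or -0.22 on total counts, and ran from Ehf, at -2.48, to the goblet cell factor Spdef, at 2.43, with Elf4 at 0.99. Among 7 other PRDM genes, 1 was past either line, Prdm11 at -3.39 with 384 and 28 counts, and Prdm4 was at -0.19. Prdm9, known from meiotic germ cells, had 2330 and 2161 counts and a value of 0.28. The E protein partners of Tcf4 were lower, Tcf3 at -1.22 and Tcf12 at -0.91. The inhibitor Id4 was at 4.68, from 10 counts in control mIOs and 196 in DSS-treated mIOs, or 0.14 CPM and 3.58 CPM. The inhibitors Id1, Id2 and Id3, with more counts than Id4 in both libraries, were at -0.38, -0.23 and 0.09. Beside Tcf7l2, the WNT effectors Lef1 and Tcf7 were at -3.59 and -3.03. The BCL6 corepressor genes Bcor and Ncor1 were at -1.10 and -0.08, and the paralog Bcl6b was at 0.60.

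Of 14 other transcription factors of enterocytes, 1 was past the line of 1 and 1 past that of -1, or 1 and 2 on total counts. Their median was -0.08, or -0.33 on total counts. Hnf4g was at 2.24, with 5005 and 18020 counts, and Cdx2 at -1.35, with Grhl2 at -0.98 the next in size. BMP signaling genes had a median of 0.09 over 11 genes, or -0.17 on total counts. The ligand gene Bmp2 was at 2.53, the inhibitor Smad6 at -1.73 from 52 and 12 counts, and Smad7 at 0.66.

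**Figure D4:**
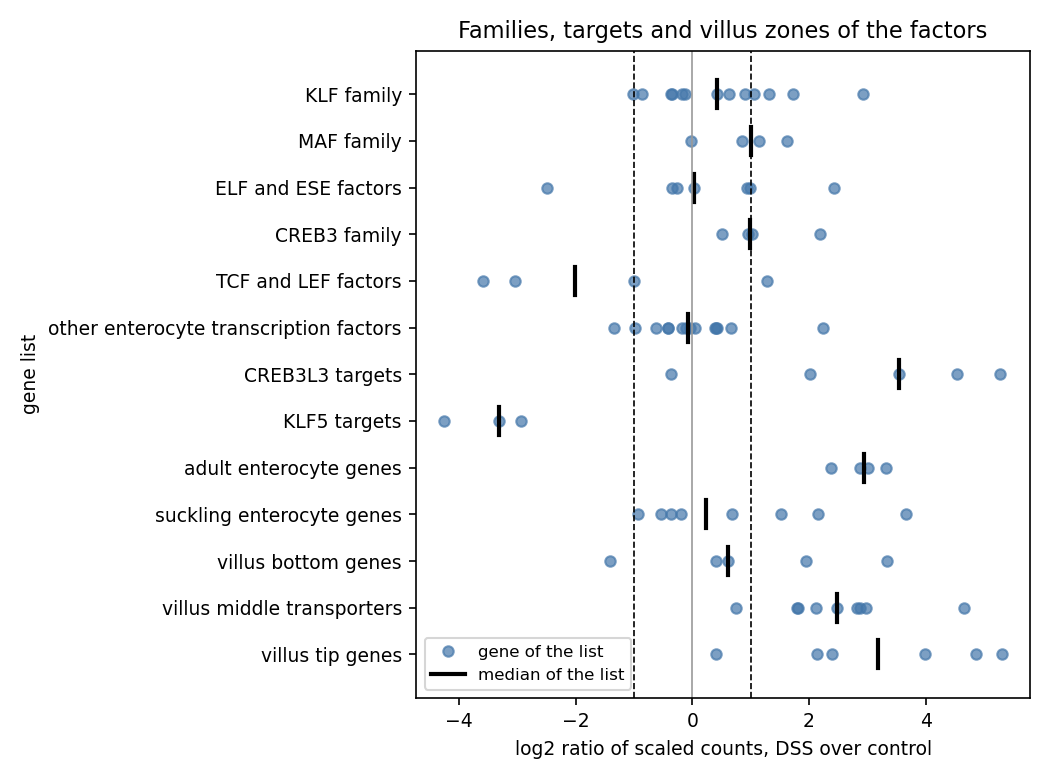
Log2 fold difference of scaled counts, DSS over control, of each gene tested (circles) in lists of relatives, targets and villus zone genes of the 8 factors, which are themselves left out, with the median of each list (black bar) and dashed lines at -1 and 1. The CREB3L3 targets have a median of 3.55 and the villus tip genes of 3.19, while the other enterocyte transcription factors have a median of -0.08.

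Genes known as targets of the factors were read beside them, without a test of the relation. Of 5 CREB3L3 targets tested, 4 were at 2 or more, against 7.87% of all genes. The apolipoprotein genes Apoa1, Apoa4 and Apoc2 were at 5.27, 4.54 and 3.55, and the lipid droplet gene Cidec was at 2.02. Fgf21, the target best known from liver, had 22 and 13 counts, and its interval, from -1.48 to 0.68, held 0. The proteases that release the factor were lower, Mbtps2 (S2P) at -0.98 and Mbtps1 (S1P) at -0.42, and cleavage itself was not measured. Apoa1 and Apoa4 are also among the 10 enterocyte markers, all of which were higher, and the part of that in the result was not tested.

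For KLF4, the brush border phosphatase Alpi was at 3.94 and the cell cycle inhibitor Cdkn1a at 0.86. Alpi is also among the enterocyte markers, as are Sis and Krt20, which are named below. The 3 cell cycle genes listed as KLF5 targets were all at -2 or less, against 6.54% of all genes. Ccnd1 was at -2.94, Cdk1 at -3.31 and Ccnb1 at -4.25, while Klf5 itself was at 0.34. All 6 stem cell markers were also at -1 or less, and the part of crypt cell numbers in these values was not tested. The BCL6 targets were at -1.22 for Ccnd2, -0.36 for Socs2 and -0.09 for Cish. Tgfbr2, a target of ELF3, was at -0.45.

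PRDM1 is known for keeping suckling genes on and adult genes off in the young epithelium. All 4 adult enterocyte genes tested were at 2 or more, with a median of 2.94, among them sucrase-isomaltase Sis at 3.32 and Mgam at 2.87, and Arg2 was 8.02-fold higher. The 8 suckling genes had a median of 0.24, or -0.017 on total counts, with 4 above 0 and 4 below. Of these, 3 were past the line of 1, Cubn at 3.66, Lct at 2.15 and Fcgrt at 1.52. Glb1 was at -0.92, Ass1 at -0.53, Asl at -0.37 and Dab2 at -0.20, and 1 of the 8 was past the line of -1 on total counts. The summed level of the list was 221 CPM in control and 187 CPM in DSS-treated mIOs. Glb1 alone made up 126 CPM of it in control and 66.5 CPM in DSS-treated mIOs, so the sum mainly follows that gene.

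Genes with a known place along the villus differed by zone in their medians, which were 0.60 for 5 bottom genes, 2.48 for 9 transporters of the middle and 3.19 for 6 tip genes. At the tip, Ada was at 5.30, Enpp3 at 4.87 and Krt20 at 3.99. In the middle, Slc15a1 was at 4.66, Slc2a2 at 2.98 and Slc5a1 at 2.88. At the bottom, Il18 was at 3.33, Lypd8 at 1.94 and Reg3b at -1.41. The lowest tip gene was Egfr, at 0.41. The bottom list was planned with 8 genes, but Gsdmc2, Gsdmc3 and Gsdmc4 were not among the genes listed. The lists are short and were not tested against one another.

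Several of the 8 factors are also expressed outside enterocytes, and markers of other cells differed as well. Klf4 is known to act in goblet cells, and all 8 goblet cell markers were at 1 or more, with a summed level of 866 CPM in control and 11711 CPM in DSS-treated mIOs. The 10 enterocyte markers summed to 4257 CPM and 30201 CPM. Of 8 enteroendocrine markers, 7 were past the line of 1, or 6 on total counts, and Neurog3 was at -3.14. All 7 Paneth cell markers were below 0, 5 of them past the line of -1, or 7 on total counts, and the 4 tuft cell markers tested were below 0. By RT-PCR, the study reported Lgr5 and Lyz lower in DSS-treated mIOs and Vil1, Muc2 and Chga at similar levels. Here Lgr5 was at -3.78 and Lyz1 at -1.06, while Vil1, Muc2 and Chga were at 1.25, 4.98 and 2.60. Whether both measurements used the same cultures is not stated. The part of these cell types in the values of the 8 factors was not tested.

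Immune and stromal cells express Maf, Prdm1, Tcf4 and Bcl6. Among lymphoid and plasma cell markers, 2 of 9 were measured, Cd79a with 6 and 7 counts and Sdc1, which epithelium also expresses, at 0.23, or -0.03 on total counts. Ptprc, Cd3e and Cd4 were searched for but were not among the 19294 genes listed, so their counts are not known. The 5 myeloid markers measured summed to 16.7 CPM in control and 28.9 CPM in DSS-treated mIOs, with 4 above 0 and 1 below. Itgam was at 1.14, Cd14 at 0.75 and Cd68 at 0.73, while Lyz2 was at -0.56 with 137 and 71 counts. The 4 mesenchymal markers measured summed to 1.44 CPM and 2.10 CPM, with Pdgfrb at 0.32. The 4 endothelial markers measured summed to 10.6 CPM and 13.2 CPM, of which Lyve1 made up 9.61 and 9.99 CPM. Its log2 fold difference was 0.06, with Tek at 3.40 and Pecam1 at 2.58, each from 12 counts in the control, and Vwf at -0.86. The 3 neural and glial markers measured summed to 9.84 CPM and 69.6 CPM, led by Ret at 2.89 and S100b at 2.46. Part of Ret and S100b can be epithelial, and which cells express them was not tested.

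**Figure D5:**
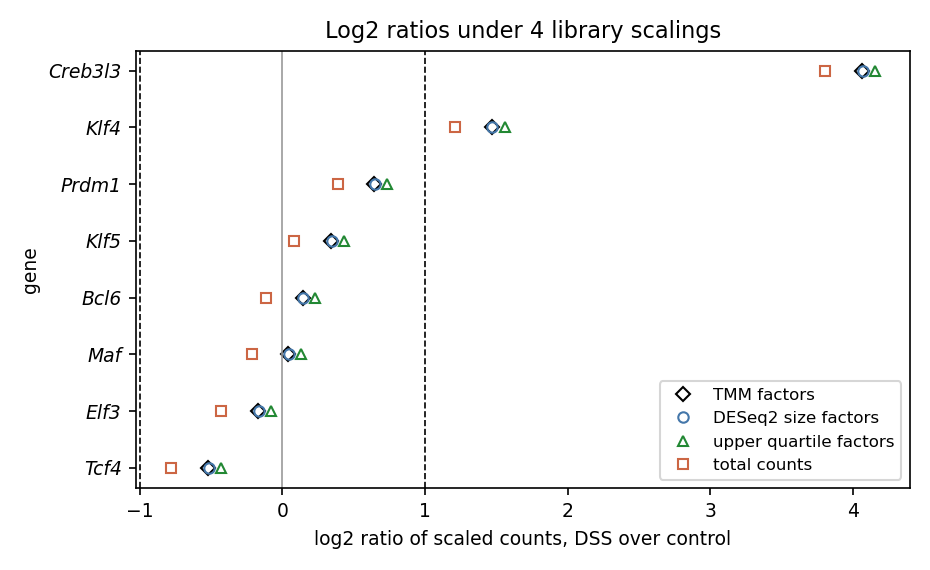
Log2 fold difference of each factor, DSS over control, under TMM factors (diamonds), DESeq2 size factors (circles), upper quartile factors (triangles) and total counts (squares), with dashed lines at -1 and 1. Creb3l3 and Klf4 lie above 1 under all 4 scalings, while Bcl6 and Maf are below 0 under total counts only.

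The direction of Creb3l3, Klf4, Prdm1 and Klf5 was positive and that of Elf3 and Tcf4 negative under each scaling tried. Maf and Bcl6 turned to -0.21 and -0.12 on total counts. In the annotation, exons of Maf, Elf3 and Bcl6 overlap a gene on the opposite strand. The libraries were stranded, but the sources used here do not say whether counting used strand, so part of these counts could come from the other strand.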

How the data were processed

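Poly(A) RNA of 1 control and 1 DSS-treated culture was sequenced with a stranded kit. The deposited table holds raw read counts per gene that were not normalized. HISAT2 and StringTie are named in the submitters' processing notes, and the counting program and genome build are not given in the sources used here. The files of the single samples are named for FPKM but hold the same counts for all 19294 genes, so they were not used. No gene is listed with fewer than 1 count in either library.

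Library sizes were adjusted by TMM with edgeR 4.0.16 under R 4.3.3 (factors of 1.09 for control, 0.915 for DSS). Intervals are exact at 95% and cover counting error only, since each group has 1 library. The reads carry no molecular identifiers, so copies of the same molecule cannot be told apart. Genes were counted past a log2 fold difference of 1 or -1, over those that reached 10 counts in one library or both. No test was made. The computation was tested on simulated counts.

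The factors and gene lists were chosen with earlier results of these data known. Named genes are the 8 factors, up to 3 genes per list that differed most in either direction and reached 50 counts in a library, and the second gene of each pair. Enterocyte, stem, goblet, Paneth and tuft cell markers are given as counts or sums. They are named only where another list names them or the study measured them by RT-PCR. Cidec, Fgf21, Cd79a, Glb1, Ass1, Asl, Dab2, Egfr, Lyz2, Lyve1, Id1, Id2, Id3 and the RT-PCR genes were chosen after their values were seen. So were the promoter windows of Elf3, Prdm1 and Bcl6. Some planned genes and a planned gene pair are not reported here. With 2 libraries no gene can be named as most alike in pattern. Transcript lengths came from GENCODE vM21 (GRCm38) by symbol and promoter windows from RefSeq (GRCm38.p6).

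Other settings tried were upper quartile factors, size factors of DESeq2 1.42.0, total counts, thinning, 2 added counts, other count minimums, the mean, a line of 2, centering on all genes and the longest transcript. Leaving out Tcf4 was added after the data were seen. Python 3.11.15, numpy 2.4.6, scipy 1.17.1, pandas 2.3.3 and matplotlib 3.10.9 were used.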

Additional observations from a re-analysis of the deposited data

How the results depend on the processing

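Each condition is 1 library, so the spread between cultures is unknown, and depth also limits genes with few counts, such as Prdm1. The number of factors at a log2 fold difference of 1 or more was 2 under each scaling, with a prior count, with thinning and with centering, and 1 with a line of 2, as only Creb3l3 is past it. The number at -1 or less was 0 in each of these. The median of the factors, 0.24, was -0.015 with total counts, 0.33 with upper quartile factors, 0.75 as a mean, which Creb3l3 raises, and 0.34 without Tcf4, a choice made after the data were seen. Over the scalings, the log2 fold difference of Creb3l3 ran from 3.81 to 4.15 and that of Klf4 from 1.21 to 1.56. With the longest transcript in place of the median length, the DSS levels were 59.4 CPM per kb for Klf4, 56.4 for Klf5, 4.34 for Maf, 0.873 for Prdm1, 90.4 for Elf3 and 1.15 for Tcf4, and those of Creb3l3 and Bcl6 did not change. The within-library ratios moved by less than their intervals with thinning. Of the alternatives for single factors, 14 moved a value by more than its counting interval and 34 did not, and no factor past the line changed sign. No paired analysis was possible because each group has 1 sample.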
